A study of Mus musculus with 73 samples.

Results

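The livers described here came from mice that lost both Foxa1 and Foxa2 during liver development, called developmental double nulls, and were sampled at 4 ages. Methylation was measured by reduced representation bisulfite sequencing (RRBS), which cuts DNA at CpG-rich sites and reads unconverted cytosines as methylated. The older livers were aged 4 and 6 months and the younger livers 20 days and 8 weeks, with 1 library at each age. These 4 libraries were chosen by their titles, out of 27 RRBS libraries and 73 samples in the series. The deposited table gives a methylation level for 100 bp tiles, and 401192 of its 817277 tiles had a level in all 4 libraries and were compared.

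The nulls are labelled only by age and as lacking both factors; per the series, deletion took place in liver development, and the developmental nulls of its other assays carried floxed alleles of both genes with the Alfp Cre transgene. An age series of controls (20 days, 8 weeks, 4 months and 6 months, 1 library each) is used below only beside the nulls, and the Cre status of those controls is not given in their labels. At 8 weeks, 2 libraries of FoxA1L/L;FoxA2L/+ livers, which keep 1 Foxa2 allele, and 2 of FoxA1L/+;FoxA2L/+ double heterozygotes, all depleted in development, are set beside the 8-week null. Adult control levels are means of 7 other RRBS control libraries. These came from FoxA1L/L;FoxA2L;L;FoxA3-/- mice after GFP induction, or from controls injected with AAV GFP before partial hepatectomy. Their ages were 9 weeks (day 7 after GFP induction) or 12 weeks (day 13 and hepatectomy). Adult controls were thus older than the 8-week null and younger than the 4- and 6-month nulls. The spread used to test single tiles came in part from these mutants and adult controls, and from further nulls. The further nulls were FoxA triple nulls at day 7 (aged 9 weeks) or day 13 (aged 12 weeks) after Cre induction. Others were livers made double null in adulthood and followed by partial hepatectomy, aged 12 weeks. DNA was taken from hepatocytes, per the labels' protocols. Neither the deletion nor the cell type could be checked, because the table holds methylation levels by position and no gene values. A level in DNA from many cells is the share of methylated copies, so a different mix of cells and a different level per cell cannot be told apart.

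FOXA1 and FOXA2 are forkhead pioneer factors, which can bind DNA packed in nucleosomes and open liver enhancers for other factors such as HNF4A and HNF6. Binding sites of such factors are methylated in cells that do not use them and lose methylation as a tissue differentiates, through dilution over cell divisions and oxidation by TET enzymes. In mouse liver, part of this remodelling takes place after birth, as fetal liver genes are switched off and adult metabolic genes are switched on.

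The 4 null libraries had a level at 445198 (8 weeks) to 594593 (4 months) tiles. Depth per tile is unknown, since the table gives no read counts, and a level of 0 or 100 can rest on few reads. Across tiles, pairs of null libraries differed by more than 20 points at 3.30% (4 and 6 months) to 4.75% (20 days and 8 weeks) of tiles. Tiles more than 2000 bp from any FoxA site that were under 5% in adult controls averaged 3.02 to 3.64% in the 4 nulls, against 1.02 to 1.44% in the 19 RRBS libraries outside the age series, 7 of which chose these tiles. The age series controls, at 3.14 to 3.69%, shared this higher floor. Nothing in the labels says whether a library is 1 animal or a pool, and each age has 1 library, so the spread within the older or the younger livers mixes age with animal. Exact permutation p-values below measure only the spread between the libraries compared. The p-values of single tiles also draw on the spread within groups of the 19 RRBS libraries outside the age series. Neither kind measures the spread between null livers of the same age.

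Total methylation was nearly the same at every age. The mean level over all tiles was 60.4% (20 days), 61.1% (8 weeks), 60.3% (4 months) and 61.1% (6 months). The older livers averaged 60.7 ± 0.558% and the younger livers 60.8 ± 0.486% (SD, n = 2 each), a difference of -0.117 points (2-sided exact permutation test, p = 0.667, where 2 against 2 cannot go below 0.333). The 362670 tiles more than 2000 bp from any FoxA site gave 63.4%, 64.3%, 63.5% and 64.3% over the same ages.

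Tiles that are partly methylated in adult liver stood lower in the older nulls. The 20674 tiles at 5 to 20% in adult controls averaged 16.9% (20 days), 14.6% (8 weeks), 13.0% (4 months) and 13.0% (6 months). The 12497 tiles at 20 to 40% averaged 38.7%, 38.1%, 34.5% and 35.5% over the 4 ages. Both classes had both older libraries below both younger ones, with differences of -2.74 and -3.44 points, at the smallest exact permutation p of 0.333. At 40 to 60% the difference was -1.63 points, and at 60 to 80% it was 0.0163 points. The 200613 tiles at 80% or more averaged 93.0%, 94.2%, 93.8% and 94.5%, 0.545 points higher in the older livers, with overlapping groups. Without the 20-day library the difference of the 5 to 20% class was -1.58 points. That of the 40 to 60% class was -1.003 without the 8-week library and -0.949 without the 4-month one.

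Single tiles were tested with limma's moderated test on the percent scale, with the spread shared between the nulls and the 19 replicated RRBS libraries of the other experiments, and Benjamini-Hochberg adjustment over all 401192 tiles. At an adjusted p under 0.05, 2675 tiles (0.667%) fell and 1565 (0.39%) rose in older relative to younger nulls. Of these, 472 (0.118%) fell and 188 (0.0469%) rose by at least 20 points. The smaller calls were of another kind: 2094 of the other 2203 lower tiles and 1271 of the other 1377 higher tiles were under 5% in adult controls, with median differences of -4.38 and 4.31 points. At these small calls, the median SD within the 2 null age groups was 1.10 points for lower tiles. Within the other groups that set the spread it was 0.570 points. The calls of at least 20 points also varied more within nulls, at 8.25 against 5.83 points (lower) and 6.80 against 5.29 (higher). Over all tiles the order was the reverse, 2.95 points within the null age groups against 4.01 within the other groups. With the spread taken from the 4 null libraries alone, no tile passed, up or down, although 24738 had an unadjusted p under 0.05. Fewer tiles were called with the controls added to the spread, 1064 lower and 602 higher. Which library was present also mattered: at 20 points or more, 695 tiles were lower and 896 higher without the 20-day library, 2558 and 817 without the 8-week one, 585 and 368 without the 4-month one, and 599 and 190 without the 6-month one.

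The 472 tiles that fell by at least 20 points had a mean level of 67.5% (20 days), 55.4% (8 weeks), 23.6% (4 months) and 23.2% (6 months). Their median difference was -36.0 points. In adult controls, 189 of them stood at 5 to 20% and 114 at 20 to 40%, so that 0.914% and 0.912% of the tiles of these 2 classes fell this far, against 0.118% of all tiles. Only 24 of the 472 stood at 80% or more in adult controls. These values chose the tiles and describe them. Neighbours were taken whether or not they were called themselves, and some were, so the choice fixed part of their values too. Of the 410 falling tiles with another measured tile within 500 bp, 343 (83.7%) had a neighbour mean below 0, with a median of -14.4 points, against 49.4% of all tiles with a neighbour.

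**Figure D1:**
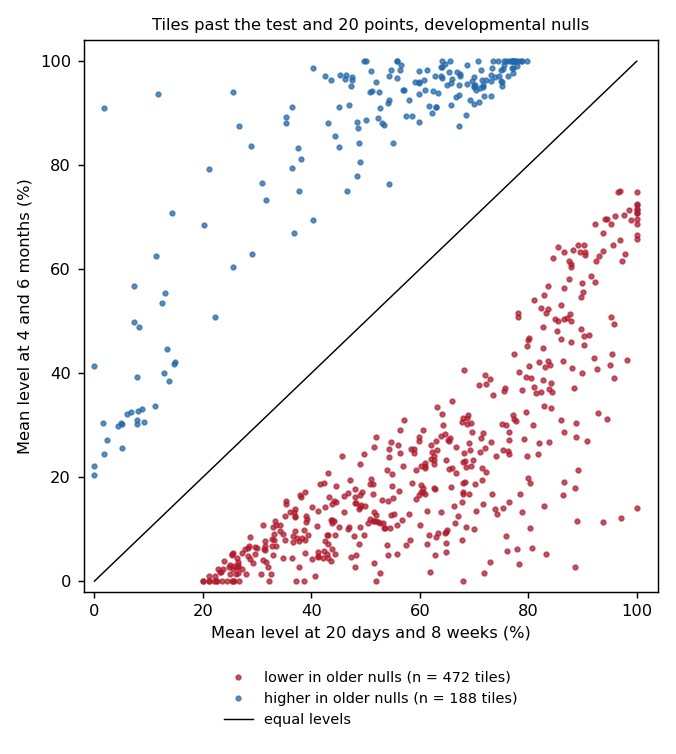
Mean methylation level of the older nulls (4 and 6 months, vertical, %) against that of the younger nulls (20 days and 8 weeks, horizontal, %) for the tiles past the test and a difference of 20 points. Of the 472 lower tiles 379 end under 40% in older nulls, and of the 188 higher tiles 143 end above 80%.

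The 188 tiles that rose by at least 20 points were mostly near full methylation in the older livers. They averaged 53.1% (20 days), 47.2% (8 weeks), 82.9% (4 months) and 84.6% (6 months), with a median difference of 30.5 points. In adult controls, 123 of them stood at 80% or more, which is 65.4% of the rising tiles. As a share of each class, however, rising tiles were most frequent at 5 to 20% (0.0967%) and 20 to 40% (0.088%), against 0.0613% at 80% or more and 0.0469% of all tiles. Their neighbours, again with called tiles included, stood closer to 0. Of the 144 with a neighbour within 500 bp, 98 (68.1%) had one above 0, with a median of 2.11 points, against 49.2% of all tiles with a neighbour.

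**Figure D2:**
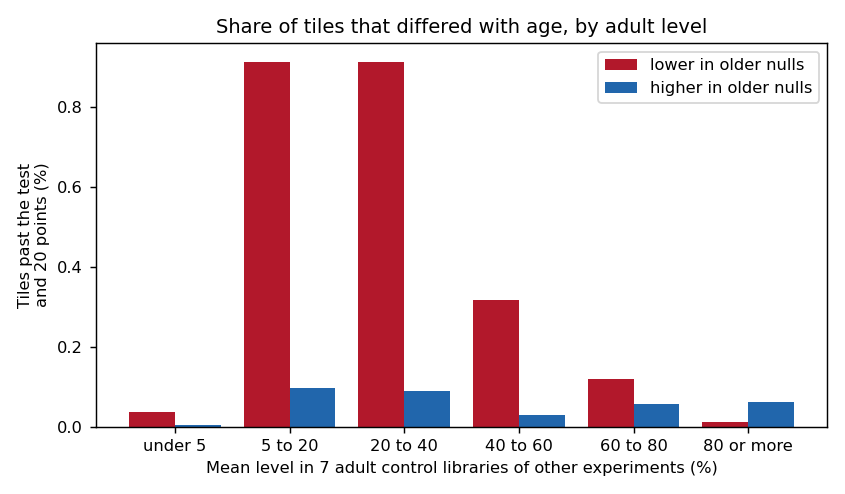
Share of tiles (%) that passed the test with a difference of at least 20 points in older nulls, by the mean level of the tile in 7 adult control libraries. Lower tiles (left bar of each pair) reach 0.914% and 0.912% in the classes from 5 to 40%, and higher tiles (right bar) stay under 0.1% in every class.

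The tiles and runs named below were chosen for their null levels, so their gaps to controls and to other mutants are descriptions. The 5 largest single falls were found on 4 chromosomes, each inside no FoxA site. At chromosome 17, 36079601 to 36079700 (mm9), the null level was 94.1% (20 days), 100% (8 weeks), 12.8% (4 months) and 11.4% (6 months). Both older livers were therefore in the range of the adult controls, 5.36 to 16.7%, and both younger ones were nearly fully methylated. The difference was -85.0 points (SE 4.23, limma adjusted p = 4.3e-07). In the age series controls the tile was at 72.2% at 20 days and at 11.6%, 10.6% and 15.5% after it, so the controls were low by 8 weeks. The other 8-week mutants with a level were at 100% there, as was the 8-week null.

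At the remaining large falls, the older controls of the age series were also below the younger ones. At chromosome 1, 8401201 to 8401300, the null level was 100% (20 days), 100% (8 weeks), 6.67% (4 months) and 21.4% (6 months), a difference of -86.0 points (SE 15.5, limma adjusted p = 0.0123). The controls of the same ages were at 92.0%, 75%, 4.00% and 9.09%. The older livers were low and the younger ones high in both genotypes. A pair of neighbouring tiles at chromosome 10, 17859201 to 17859400, did the same, at 77.1% and 91.7% at 20 days, 100% and 95.8% at 8 weeks, 0% and 4.76% at 4 months, and 5.36% and 17.9% at 6 months. At these 3 tiles the 7 adult controls ranged widely, from 0 to 90.9% at the chromosome 1 tile and from 7.59 to 76.2% at the first chromosome 10 tile. At chromosome 11, 116051801 to 116051900, the null level was 88.9%, 77.8%, 3.70% and 6.67% over the 4 ages, with controls at 66.7%, 41.7%, 8.33% and 18.2%.

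**Figure D3:**
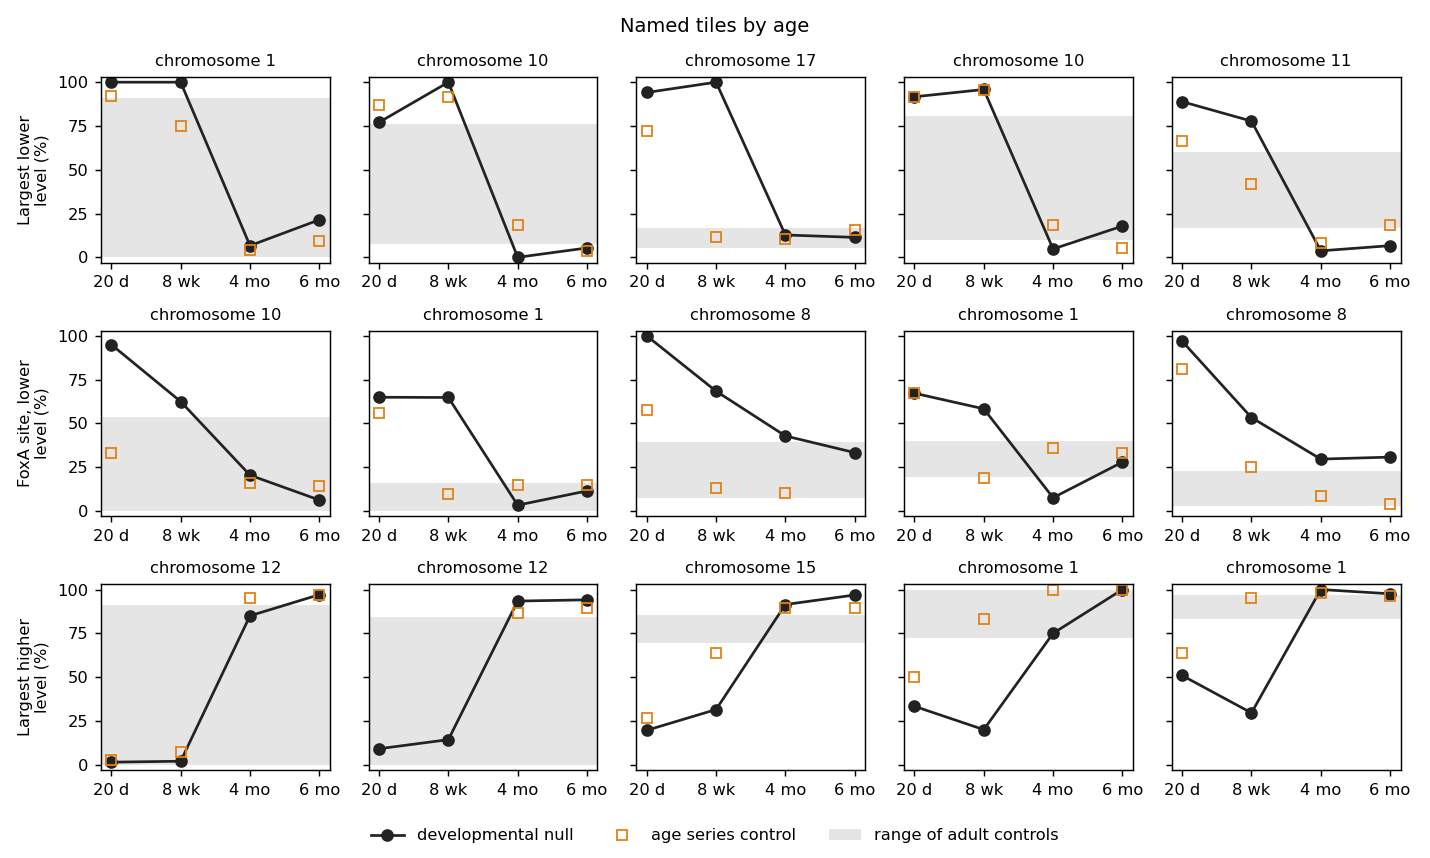
Methylation level (%) by age at 15 named tiles, 5 in each row: largest falls, falls inside FoxA sites, and largest rises. Filled circles joined by lines are developmental nulls, open squares are age series controls (1 library each; a square is missing where the control had no level), and the grey band is the range of the adult controls. The null levels chose the tiles, the high younger levels of the upper rows included; the control squares took no part in the choice.

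Falls also came in runs of tiles, although 2303 of the 2482 separate falling regions held a single tile. The strongest run lay at chromosome 8, 34991901 to 34992600 (mm9), where all 3 measured tiles were called (limma adjusted p between 4.0e-07 and 0.0042) and the stretch touched a FoxA site. Its mean null level was 83.5% (20 days), 82.4% (8 weeks), 17.8% (4 months) and 13.7% (6 months). The controls were at 79.6% at 20 days but already at 0% at 8 weeks, then at 11.2% and 13.2%, and adult controls averaged 8.44%. The run was chosen for its null levels, so the gap to the control at 8 weeks is a description only. At chromosome 11, 4964001 to 4964400, with 3 of 4 tiles called, nulls had 79.2%, 52.3%, 26.5% and 28.9%, and controls had 80.9%, 54.4%, 41.5% and 24.5%.

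The other 3 falling runs were low at every age. At chromosome 9, 103965001 to 103965500, all 5 tiles were called, with mean null levels of 10.4%, 12.3%, 2.44% and 1.95% from the lowest to the highest age. At chromosome 2, 147864201 to 147865300, 4 of 10 tiles were called, with 13.7%, 13.0%, 2.73% and 4.92%. At chromosome 6, 72294901 to 72295200, all 3 tiles were called, with 11.9%, 21.3%, 1.77% and 3.04%. All 3 runs stood under 1% in adult controls, and the younger nulls were the high ones. In controls, the chromosome 9 and chromosome 2 runs stayed between 2.35 and 4.06% at every age, and the chromosome 6 run was at 12.1% at 20 days and at 3.66% or less at later ages.

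FoxA sites are 400 bp stretches, 33302 in the deposited developmental table, and the authors list a part of them as hyper-methylated in developmental nulls. That list was chosen by whole-genome bisulfite sequencing at 8 weeks, as sites where nulls exceeded controls by more than 20 points, so a high null level at listed sites at 8 weeks was fixed by the choice, in other libraries. The change of the nulls with age was not used in it. The compared tiles included 114 tiles inside 82 listed sites and 3799 tiles inside other FoxA sites.

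At listed sites the nulls kept much of their methylation at 6 months. The 114 tiles averaged 52.3% (20 days), 49.0% (8 weeks), 40.8% (4 months) and 45.5% (6 months). The older livers averaged 43.2 ± 3.33% and the younger livers 50.7 ± 2.38% (SD, n = 2 each), a difference of -7.51 points at the smallest exact permutation p, 0.333. Both older libraries were below both younger ones, but the lowest was the 4-month liver and the 6-month liver stood 4.70 points above it. Leaving out 1 library at a time gave differences of -9.86 to -5.16 points, and the median over tiles gave -14.0.

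Single listed tiles went different ways. Their differences ran from -57.5 to 26.2 points with a median of -4.65, against a median of 0 over all tiles, and 80 of the 114 were below 0. By the test, 8 tiles fell and none rose; the 8 are 7.02% of the listed tiles, against 0.667% of all tiles. Both older libraries were below both younger ones at 39 listed tiles (34.2%, against 15% of all tiles) and above them at 4 (against 15.2%). Level was lower at each of the 3 age steps at 8 tiles (7.02%, against 2.85% of all) and higher at each step at 1 tile (against 3.58%). At 6 months, 60 of the 114 tiles were above 40% methylated and 30 were under 20%; at 20 days, these numbers were 72 and 25.

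**Figure D4:**
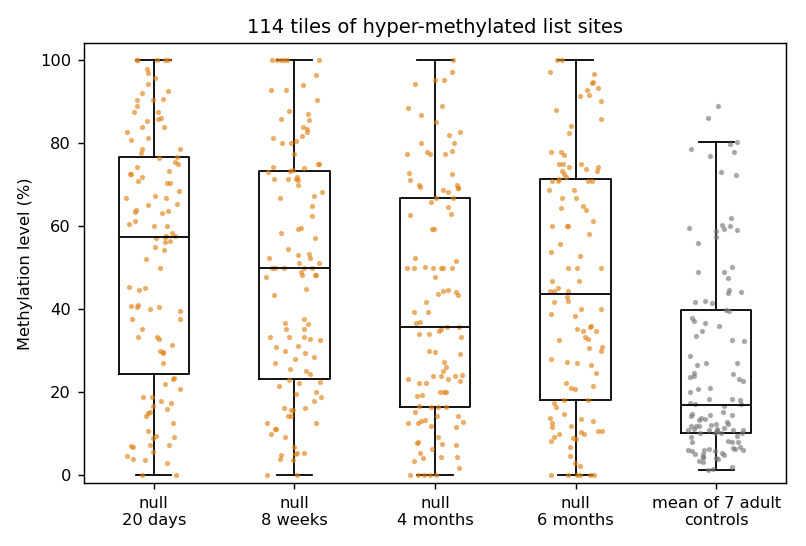
Methylation level (%) of the 114 tiles inside listed hyper-methylated FoxA sites in the 4 developmental nulls by age, with the mean of 7 adult controls at the right. Points are tiles, boxes give quartiles and median, and whiskers reach 1.5 times the quartile range or the last point; the median null tile was at 57.5%, 50.0%, 35.7% and 43.7% from 20 days to 6 months.

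Measured against adult controls, the listed tiles of nulls stood higher by 26.1 points (20 days), 22.8 (8 weeks), 14.6 (4 months) and 19.3 (6 months), where the adult controls averaged 26.2%. The number of listed tiles at least 20 points above the adult level was 58 (20 days), 54 (8 weeks), 34 (4 months) and 54 (6 months), which is 47.4% of them at 6 months against 2.09% of all tiles. At 21 listed tiles (18.4%) the null was at least 20 points above at every age, against 0.171% of all tiles. At other FoxA sites, 4 tiles (0.105%) were.

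The listed tile with the largest fall lay at chromosome 1, 161973801 to 161973900 (mm9), in the site from 161973618 to 161974017. Its null level was 64.9% (20 days), 64.8% (8 weeks), 3.33% (4 months) and 11.5% (6 months). Both older livers were in the adult control range of 0 to 16.1%, and neither younger liver was near it. The difference was -57.5 points (SE 3.71, limma adjusted p = 1.1e-06). The age series controls were at 55.9% at 20 days and at 9.43%, 14.8% and 14.8% at the later ages, and the other 8-week mutants at 15.2 to 20.8%. The next tile of that site, 161973901 to 161974000, had null levels of 67.2%, 58.3%, 7.58% and 27.9%, and fell by 45.0 points (SE 7.90, limma adjusted p = 0.0102). At this next tile the other 8-week mutants stood at 34.1 to 65%. The 8-week null was thus inside their range, unlike at the first tile, and the 8-week control was below that range.

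Of the other listed tiles with large falls, those on chromosomes 9 and 8 stayed above the adult control range in both older nulls. At chromosome 9, 122541001 to 122541100, the null level was 74.1%, 52.3%, 34.0% and 32.8% over the 4 ages, against 75%, 18.4%, 0% and 0% in controls. At chromosome 8, 122460701 to 122460800, it was 97.0%, 53.3%, 29.6% and 30.8%, against 81.3%, 25.0%, 8.57% and 4.00% in controls. At both tiles nulls and controls were within 16 points at 20 days, and at 4 and 6 months every null library was more than 20 points above the control of its age. At chromosome 7, 150690101 to 150690200, the null level was 80.8%, 51.0%, 16.4% and 27.1%, against 64.9%, 0.962%, 15.1% and 4.41% in controls. There the 4-month null was inside the adult control range of 4.17 to 26.0%, and the 6-month null was just above it. The limma adjusted p of these 3 tiles lay between 0.00863 and 0.0369.

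Other FoxA sites were mostly unmethylated at all ages, with a mean of 11.4% (20 days), 9.46% (8 weeks), 8.45% (4 months) and 8.52% (6 months). The difference was -1.93 points, both older libraries were below both younger ones, and it was -0.971 points without the 20-day library and -0.605 by the median over tiles. By the test 83 of the 3799 tiles fell (2.18%, against 0.667% of all tiles) and 39 rose (1.03%, against 0.39%). With at least 20 points, 17 fell (0.447%, against 0.118% of all tiles) and 3 rose (0.079%, against 0.0469%). These tiles averaged 7.24% in adult controls, and the shares differ by level. By the test, 2.00% fell and 1.19% rose of all tiles under 5% in adult controls, and 1.28% and 0.314% at 5 to 20%. With at least 20 points, 0.0375% and 0.914% of these classes fell. Whether FoxA sites differ from other tiles of their level was not tested. At chromosome 10, 17785901 to 17786000, in the site from 17785675 to 17786074, the null level was 95.0% (20 days), 62.5% (8 weeks), 20.5% (4 months) and 6.25% (6 months), and fell by 65.4 points (SE 12.4, limma adjusted p = 0.0163). The other 8-week mutants stood at 0 to 14.3% there. At chromosome 8, 111411401 to 111411500, the null level was 100%, 68.4%, 42.9% and 33.3%, with mutants at 5.26 to 17.4% at 8 weeks.

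The 5 largest rises inside FoxA sites stood at 0.251 to 10.8% in adult controls. At chromosome 5, 120970401 to 120970500, the null level was 30.8% (20 days), 27.3% (8 weeks), 69.6% (4 months) and 56.3% (6 months), a rise of 33.9 points (SE 5.13, limma adjusted p = 0.00362). All 4 null libraries were above the adult control range of 6.00 to 24.4%, and the controls of the age series were between 0 and 22.2%. At chromosome 12, 83223601 to 83223700, nulls had 5.41%, 10.7%, 23.1% and 42.3%. The other 3 tiles, at chromosome 10, 77622301 to 77622400, chromosome 7, 144498001 to 144498100, and chromosome 3, 32295901 to 32296000, were at 0% in both younger livers, and at 30.0%, 21.4% and 15.2% at 4 months and 14.3%, 11.8% and 5.13% at 6 months.

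HNF6 (Onecut1), a homeobox factor of hepatocytes and bile duct cells, binds liver enhancers beside FoxA proteins. Of the 1078 HNF6 regions in all 3 deposited control peak lists, tiles were few. The 20 tiles in regions with a FoxA site averaged 6.96% (20 days), 4.94% (8 weeks), 7.30% (4 months) and 8.15% (6 months), higher by 1.78 points in the older livers. This value was 2.79 without the 20-day library and 0.768 without the 8-week one. The 17 tiles in regions without one averaged 9.25%, 7.02%, 4.55% and 3.87%, a difference of -3.92 points. In the regions with a FoxA site no tile passed the test, and in those without one 1 tile of 17 fell (5.88%, against 0.667% of all tiles).

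The largest rises of single tiles were of 2 kinds. At chromosome 12, 105236601 to 105236700 (mm9), the null level was 1.43% (20 days), 1.96% (8 weeks), 85% (4 months) and 97.1% (6 months) (89.3 points, SE 11.3, limma adjusted p = 0.00087). The controls followed the same split, at 2.78%, 7.27%, 95.2% and 97.1%, while the 7 adult controls ranged from 0 to 91.3%. A nearby tile, 105232301 to 105232400, was at 9.09%, 14.3%, 93.4% and 94.1% in nulls. At this second tile only the older controls were measured, at 86.7% and 89.3%. Older and younger nulls lay far apart at both tiles.

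At the other 3 of the largest rises, controls were high by 8 weeks or intermediate. At chromosome 1, 134282001 to 134282100, nulls had 50.9% (20 days), 29.5% (8 weeks), 100% (4 months) and 97.6% (6 months), with controls at 63.8%, 95.3%, 97.8% and 96.4%. At chromosome 1, 172621801 to 172621900, nulls had 33.3%, 20.0%, 75% and 100%, with controls at 50.0%, 83.3%, 100% and 100%. At chromosome 15, 94578201 to 94578300, nulls had 19.6%, 31.5%, 91.4% and 96.9%, with controls at 26.9%, 64.0%, 89.2% and 89.2%. The low 8-week null levels took part in the choice of these tiles. Among runs of rising tiles, chromosome 19, 20157201 to 20157500, gave 70.0%, 47.9%, 92.9% and 92.7% in nulls, and chromosome 7, 4429701 to 4430300, gave 12.6%, 2.94%, 40.4% and 31.1% in nulls against 3.71 to 12.1% in controls. The other 3 rising runs, at chromosome 2, 129418901 to 129419200, chromosome 12, 8506601 to 8507300, and chromosome 10, 7675101 to 7675900, stayed at or under 6.05% at every age.

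Order over the 4 ages was also taken tile by tile. The level was lower at every step at 11436 tiles (2.85%) and higher at every step at 14380 (3.58%), numbers that come to 2982 and 3000 when each step must be at least 2 points. The order therefore gave no excess of lower over higher tiles in the table as a whole. At 20 to 40% in adult controls, 542 tiles (4.34%) were lower by at least 2 points at every step and 216 (1.73%) higher. At 80% or more, 618 (0.308%) were lower and 1418 (0.707%) higher. Over all tiles these shares were 0.743% and 0.748%. A limma slope on log2 of age called 5049 tiles lower (1.26%) and 1913 higher (0.477%), with 11 listed tiles lower (9.65%) and none higher.

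The tiles that differed with age in control livers were then followed in nulls. Tiles were taken where the mean of the 4- and 6-month controls was at least 20 points below that of the 20-day and 8-week controls; 6523 of the 369462 tiles measured in all 8 libraries met this (1.77%, a rule on size without a test). No null library took part in the choice. In nulls these tiles averaged 69.1% (20 days), 56.2% (8 weeks), 49.1% (4 months) and 49.9% (6 months). Both older nulls were below both younger ones, by 13.1 points, or by 6.68 points without the 20-day library. Single tiles leaned the same way: 78.9% were below 0 in nulls against 48.6% of all tiles, and 2066 (31.7%) were lower by at least 20 points, against 1.16% of all tiles.

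By the test, 233 of the 6523 tiles (3.57%, against 0.667% of all tiles) fell in nulls and 2 rose (0.0307%, against 0.39%). The controls of these tiles were at 72.5%, 56.6%, 37.1% and 31.7%, but they were chosen there, so their larger difference of -30.1 points was fixed by the choice in part. The same holds for the gap between nulls and controls at each age, which is not read here. With the 8-week control left out of the choice, an alternative added after the values were seen, 9847 tiles gave 65.0%, 53.1%, 47.5% and 48.0% in nulls. The 8-week null was then 4.59 points above the 8-week control, the 1 control that had not chosen the tiles.

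**Figure D5:**
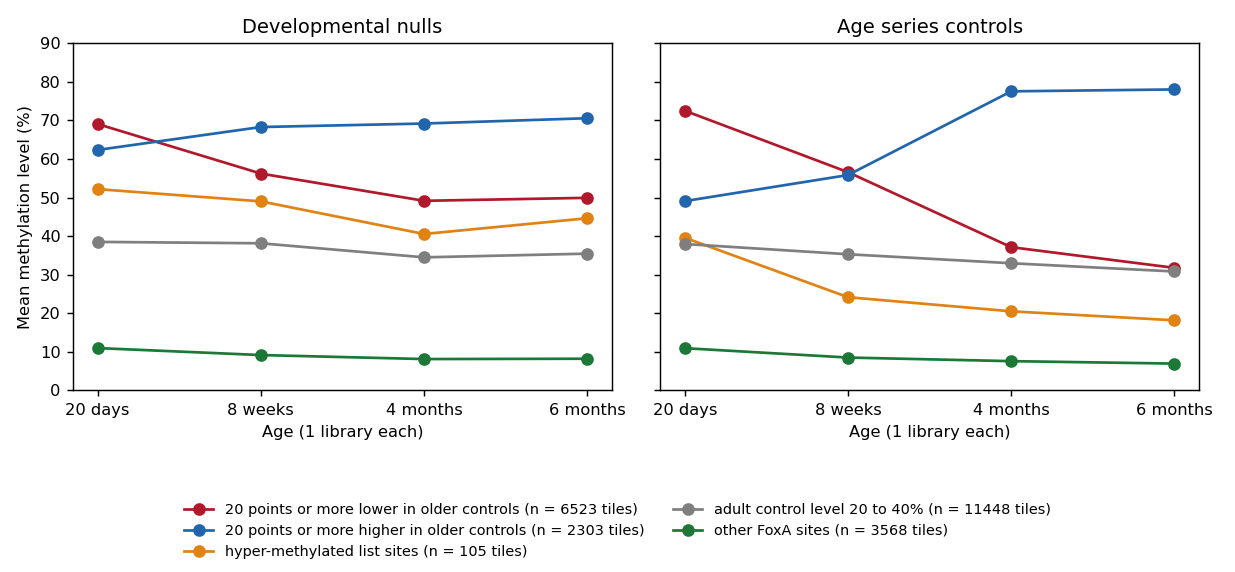
Mean methylation level (%) by age in developmental nulls (left) and age series controls (right) for 5 classes of tiles measured in all 8 libraries, each point 1 library. The control changes of the red and blue classes chose those classes; in nulls the same classes run from 69.1 to 49.9% and from 62.3 to 70.6%.

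Tiles that were at least 20 points higher in older controls, 2303 in number (0.623%), averaged 62.3% (20 days), 68.3% (8 weeks), 69.2% (4 months) and 70.6% (6 months) in nulls. The older nulls were higher by 4.57 points, by 1.60 without the 20-day library and by 7.54 without the 8-week one. Of these tiles 280 (12.2%) were higher by at least 20 points in nulls, against 0.594% of all tiles, and 62.0% were above 0. Whether the share of 12.2% differs from that of 31.7% among the control-lower tiles was not tested.

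Seen from the nulls, 421 of the 472 tiles that fell by at least 20 points had all control levels. Their median control difference was -21.3 points, 390 (92.6%) were below 0 and 224 (53.2%) were lower by at least 20 points, against 1.77% of all tiles. The controls averaged 58.9% at 20 days and 34.5%, 26.5% and 22.6% after it; the null levels of these tiles chose them and are not set against these. Of the 164 rising tiles with control levels, 15 (9.15%) were higher by at least 20 points in controls, against 0.623% of all tiles, and the median control difference was 3.18 points.

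The 8-week libraries place the null among its less depleted relatives. At the 8909 tiles that were lower in older controls (chosen without the 8-week control) and measured in every 8-week library, the null stood at 52.5%, the FoxA1L/L;FoxA2L/+ livers at 44.5% and 49.8%, the double heterozygotes at 47.3% and 49.0%, and the control at 48.0%. Inside FoxA sites (256 tiles) the null was at 32.2%, above 21.5%, 26.2%, 22.5%, 25.0% and 22.4% in the same order. Inside listed sites (40 tiles) it was at 60.8%, above 37.5%, 41.1%, 37.6%, 41.7% and 27.8%. Listed sites were chosen for nulls above controls at 8 weeks, in other libraries, so the choice fixed this gap in part. The 40 listed tiles are also among the 256 tiles in FoxA sites, so the FoxA site means and the share below include them. Whether FoxA site tiles outside the list differ from all 8909 tiles was not tested. The null was highest of the 6 libraries at 85% of the listed tiles, at 40.2% of the tiles in FoxA sites and at 30.4% of all 8909 tiles, against 26.8% of all 349898 tiles measured. Over those 349898 tiles the null averaged 58.5% and the other 5 libraries 55.7 to 57.8%, an offset that enters these comparisons; the 4 mutant libraries are also among those with the lower floor.

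With the age series controls added to the spread, limma called 1612 tiles lower (0.436%) and 592 higher (0.16%) in older relative to younger controls. These were taken from the 369462 tiles with all 8 values. With the controls in the spread, nulls gave 1064 lower and 602 higher of 401192 tiles, so the larger null counts given earlier are not comparable. Of the listed tiles, 3 of 105 fell in controls and none rose, while the 8 listed falls in nulls came from the spread without controls. The difference between the genotypes in how they changed with age was tested directly. At the 369462 tiles with all 8 values, limma called the change of nulls minus that of controls lower at 467 tiles (0.126%) and higher at 493 (0.133%). Only 40 and 54 of these reached 20 points, and 443 and 442 stood under 5% in adult controls. No listed tile was among them, and none of the named tiles with all 8 values passed, with adjusted p-values from 0.123 to 1. At listed sites (105 tiles) the nulls had 52.2%, 49.0%, 40.5% and 44.6% and the controls 39.6%, 24.1%, 20.5% and 18.1%. The older minus younger difference was -8.01 points in nulls and -12.6 in controls, 4.54 points apart (exact permutation of age within genotype, 36 arrangements, 2-sided p = 0.833). At every age the null was the higher library at these tiles, by 12.6 points (20 days), 24.9 (8 weeks), 20.1 (4 months) and 26.5 (6 months). The sites were listed for nulls above controls at 8 weeks, so the choice fixed this direction in part.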

How the data were processed

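The authors deposited RRBS methylation levels as fractions between 0 and 1 per 100 bp tile on mm9, for chromosomes 1 to 19. The submitters' processing notes name Trim Galore 0.3.3 and BSMAP 2.74; for the summary over tiles, the method is not stated in the labels or file headers. Fractions were multiplied by 100 to give percent. The authors' averages of 8 groups were not used. FoxA site and peak positions were taken from the other deposited files (a tile lies wholly inside a site, or overlaps an HNF6 region by at least 50 bp); their scores were not used. The deposited fractions carry no coverage, so precision per tile is unknown.

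Tests used limma 3.58.1 in R 4.3.3 with a variance trend, and exact permutation in Python 3.11.15 with scipy 1.17.1. The fit drops or imputes no null library. It was tested on simulated data in which all groups varied alike at a tile. That simulation therefore does not cover tiles that vary more within nulls than within the other groups. Named tiles were the 5 regions with the most called tiles and the 5 largest single tiles in each direction, over all tiles, FoxA sites and listed sites, giving 22 tiles. The classes, lists and rules were chosen with earlier results of these data known. The reference tables are of another build than mm9, so no genes are named, the fixed hepatocyte, fetal liver, liver factor and cell type lists were not counted, and no sequence was read. Alternatives covered the scale, level filters, source of the spread, centring and each library left out.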

Additional observations from a re-analysis of the deposited data

Results flagged for a closer look

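The age change of the nulls differed from that of the controls, by limma's test of the difference itself, at 467 tiles where it was lower in nulls and at 493 where it was higher. The median change at the 467 tiles was -4.60 points in nulls and 2.94 in controls, and at the 493 tiles it was 3.18 points in nulls and -4.09 in controls. With the spread taken from the 8 age series libraries, 0 tiles passed in either direction, and 17979 had an unadjusted p under 0.05.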

How the results depend on the processing

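Counts of tiles past the test depended on the source of the spread. Against 2675 lower and 1565 higher tiles, the logit scale gave 4728 and 3140, a mean level of 5 to 95% gave 522 and 211, at least 20 points gave 472 and 188, no variance trend gave 789 and 399, and centring on distant tiles gave 1420 and 735. The spread of the 4 null libraries gave 0 and 0, and adding the controls gave 1064 and 602. The age of 20 days against the later 3 gave 6624 lower, the slope on log2 of age 5049 lower, and joined regions 179 and 64. Settings added after seeing the data gave 97 and 51 (mean level of 20% or more) and 472 and 188 (20 points without overlap). Leaving out 1 library, whose remaining partner is assumed to vary like the other groups, gave 3031 to 8551 lower and 3000 to 6530 higher; without the 4-month library 3031 were lower and 6530 higher, the reverse of the order with all 4. At 20 points it gave 695 lower and 896 higher without 20 days, 2558 and 817 without 8 weeks, 585 and 368 without 4 months, and 599 and 190 without 6 months, where higher tiles were the more numerous without the 20-day library. For the slope it gave 5487 to 8010 lower and 2421 to 5464 higher. For nulls minus controls it gave 744 to 2350 lower and 640 to 2832 higher, and the 8 age series libraries alone gave 0 and 0. Steps of at least 2 points gave 2982 lower and 3000 higher. Differences near 0 changed sign: over all tiles 0.320 points by the median and -0.511 to 0.278 with 1 library left out; distant tiles -0.407 to 0.468; tiles under 5% in adult controls -0.591 to 0.0228; tiles at 60 to 80% -0.0134 by the median, -0.257 by null levels, -0.0141 relative to distant tiles and -0.827 to 0.859; and tiles at 80% or more -0.0451 to 1.14. The cause of these changes was not tested. By the median over tiles, the class at 5 to 20% gave -1.46 points and that at 40 to 60% gave -1.07; by null levels they gave -1.18 and -2.94. Tiles lower in controls by 10 and 30 points gave -5.95 and -20.04 in nulls, and tiles higher by 10 and 30 points gave 1.86 and 11.2. The differences at listed sites, other FoxA sites, both HNF6 classes, the classes from 5 to 60% and the control-chosen tiles kept their sign in every alternative run for them.

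All 22 named tiles missed the threshold with the spread of the 4 null libraries, 18 with 20 days against the later 3 ages, 10 on the logit scale, 9 without a variance trend, 9 by the slope, 7 with the controls added to the spread, and 3 to 7 with 1 library left out; none reversed. Restriction to autosomes gave no other value, since only chromosomes 1 to 19 are in the table. Coverage minimums could not be applied, and a level of 0 or 100% may rest on few reads. No paired analysis was possible because each age has 1 library and the labels give no replicate numbers.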

Other observations

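Both rising and falling tiles of at least 20 points were unevenly placed. This was seen in the data, the placement of the 2 kinds was not compared by a test, and its cause was not tested. Chromosomes 1, 8, 12 and 19 held 102 of the 188 rising tiles (54.3%), with shares of 0.183%, 0.101%, 0.104% and 0.126% of their tiles against 0.0469% of all tiles. Chromosome 18 held none. The share of falling tiles ran from 0.0622% (chromosome 18) to 0.221% (chromosome 19), against 0.118% of all tiles. In windows of 10 Mb, 14 rising tiles lay at chromosome 8, 90000001 to 100000000, of 2069 tested, and 13 at chromosome 1, 130000001 to 140000000, of 2303 tested. The falling tiles of these windows numbered 1 and 3. The window with the most falling tiles, chromosome 11, 110000001 to 120000000, held 14 of them and no rising tile among 4469 tested.

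The 45 rising tiles of chromosome 1 averaged 62.0% (20 days), 50.7% (8 weeks), 89.2% (4 months) and 92.1% (6 months) in nulls. The controls averaged 69.9%, 88.2%, 89.0% and 89.1% at the same ages, over those of the tiles with control levels. The null levels chose these tiles and the control levels did not. Not all 45 tiles had levels in every control. Among those that did, 5 were higher by at least 20 points in older than in younger controls.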
